A study of Mus musculus with 12 samples.

Results

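The 10 genes described here encode adhesion molecules that bring leukocytes to the vessel wall: the endothelial ligands Icam1, Icam2 and Vcam1, the selectins Sele and Selp, the selectin ligand Selplg, and the integrin chains Itgal, Itgb2, Itga4 and Itgb1. They were chosen by name, with earlier results of these data known, as 10 of the 54532 genes in the count tables. Each was found once by its Ensembl identifier. The 12 polyA+ libraries came from the striatum of C57BL/6J mice in a study of transient middle cerebral artery occlusion (tMCAO), a stroke model in which the artery that feeds the striatum is closed for a time and reopened. The groups, of 3 libraries each, were 3d-SN011 (tMCAO with SN-011), SN011 (tMCAO with SN-011), vehicle (tMCAO with PBS) and sham (sham operation with PBS). SN-011 is an antagonist of STING, an adaptor of innate immune signalling. The labels do not say what the prefix 3d stands for, and no vehicle or sham library carries it, so an effect of SN-011 in 3d-SN011 and whatever 3d stands for cannot be told apart. They give neither the side of the brain nor whether the libraries of a group are separate mice, so p-values measure a spread between libraries that may be technical.

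Leukocytes leave the blood in steps. P-selectin (Selp) and E-selectin (Sele) on activated endothelium catch cells that carry PSGL-1 (Selplg), and the caught cells roll. Chemokines then switch on integrins, so that LFA-1 (Itgal with Itgb2) holds ICAM-1 and ICAM-2, and VLA-4 (Itga4 with Itgb1) holds VCAM-1. In the brain several of these genes have a second source: microglia express Itgb2 and Selplg, astrocytes can express Vcam1, and Itgb1 is expressed by vascular, glial and blood cells.

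The promoters of Icam1, Sele and Selp are shown because these inducible genes are the textbook targets of inflammatory signalling in endothelium, and because they stood so far apart in level in these libraries. The sequences are RefSeq's on GRCm38.p6, the 250 bases before the RefSeq start, 5′ to 3′ on the plus strand. They lie at chr9:21015690-21015939 for Icam1, chr1:164047984-164048233 for Sele and chr1:164115014-164115263 for Selp. Capitals mark matches, on either strand, to the NF-kB motifs GGGNNNNNCC and GGAAATTCC. They also mark the AP-1 motif TGACTCA, the STAT motif TTCNNNGAA and the core promoter motif TATAAA.
Icam1: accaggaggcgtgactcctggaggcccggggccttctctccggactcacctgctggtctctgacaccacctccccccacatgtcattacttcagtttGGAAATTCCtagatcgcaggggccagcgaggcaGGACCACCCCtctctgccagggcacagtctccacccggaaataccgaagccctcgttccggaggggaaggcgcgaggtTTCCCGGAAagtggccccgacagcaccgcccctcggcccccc
Sele: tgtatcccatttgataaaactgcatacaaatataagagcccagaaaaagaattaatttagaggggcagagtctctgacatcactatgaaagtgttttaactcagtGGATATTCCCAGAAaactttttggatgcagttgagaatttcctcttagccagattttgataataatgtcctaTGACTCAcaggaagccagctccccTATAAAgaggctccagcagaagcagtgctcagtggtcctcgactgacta
Selp: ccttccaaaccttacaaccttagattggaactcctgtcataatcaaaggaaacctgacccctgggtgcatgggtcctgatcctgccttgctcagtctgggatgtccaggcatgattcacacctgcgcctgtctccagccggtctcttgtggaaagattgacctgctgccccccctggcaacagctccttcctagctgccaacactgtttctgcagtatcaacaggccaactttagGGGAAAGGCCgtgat
In Icam1 the matches were GGAAATTCC from 153 bases before the start, GGACCACCCC from 120 and TTCCCGGAA from 42. In Sele they were GGATATTCCC from 145, TTCCCAGAA from 140 (sharing bases with the one before it), TGACTCA from 73 and TATAAA from 49. Selp had 1 match, GGGAAAGGCC, from 15 bases before the start. Of 32851 promoters of the same length, 45.8% held GGGNNNNNCC, 0.286% GGAAATTCC, 4.46% TGACTCA, 7.02% TTCNNNGAA and 12.4% TATAAA. A match is a description of the letters and not a bound site. The RefSeq table held promoters for 5 of the 10 members.

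Each library held 15806076 to 18622053 counts. Levels are given as CPM, a gene's counts brought to a library total common to all, with TMM factors that even out composition between libraries. Changes are log2 fold changes with their standard error (SE) from edgeR's quasi-likelihood test over 18537 genes, and those with an adjusted p (Benjamini-Hochberg) below 0.05 are named as called. The tissue labels were checked first. Striatal neuron markers (Drd1, Drd2, Ppp1r1b and 4 others) summed to 215 to 1559 CPM in 3d-SN011, 2852 to 4796 in SN011, 4568 to 4782 in vehicle and 4327 to 4944 in sham. Choroid plexus markers, from tissue beside the striatum, summed to 29.8 to 772 CPM in 3d-SN011, 1029 to 2989 in SN011, 1319 to 2689 in vehicle and 105 to 2499 in sham. Of the SN011 libraries replicate 3 lay nearest to 3d-SN011. Its root mean square log2 distance over tested genes was 0.777 to the 3d-SN011 mean, 0.741 to the vehicle mean and 0.588 to the other SN011 libraries. Replicates 1 and 2 were 1.08 and 1.21 from the mean of 3d-SN011. Replicate 2 was nearer to the vehicle mean (0.398) than to the other SN011 libraries (0.513). Several of the results that rest on SN011 replicate 3 are given with and without it.

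Of the 10 members, 8 passed the filter on low counts, and each of the 8 reached the filter's level in all 3 libraries of every group. Sele and Selp did not pass and were not tested. All 8 tested members were called higher in 3d-SN011 than in vehicle, by 2.01-fold for Icam2 up to 17.2-fold for Itgb2. In that comparison 57.1% of all tested genes were called, 28.9% higher and 28.2% lower. The median log2 fold change was 1.87 over the 8 members and 0.0093 over all tested genes. All 8 were also called higher against sham (background 57.6% called, 29.8% higher; members' median 1.81 against 0.010) and against SN011 (background 46.4% called, 23.6% higher; members' median 1.16 against 0.028). Libraries of 3d-SN011 lay above all those of vehicle for 8 members, of sham for 8 and of SN011 for 6, where 29.5%, 31.8% and 24.6% of all tested genes did. The comparisons share libraries, so these counts do not add to one another.

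**Figure D1:**
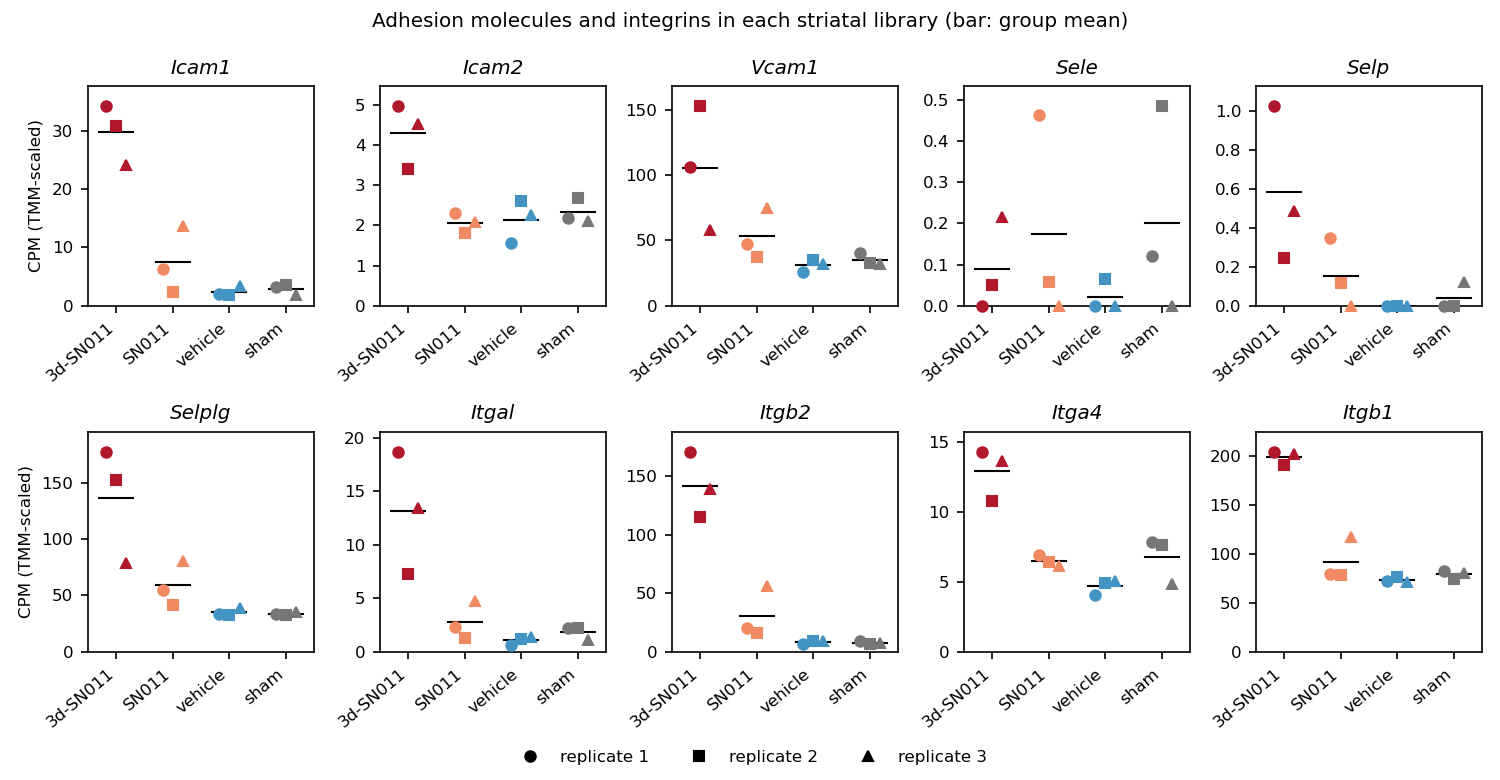
TMM-scaled CPM (y axis, from 0, a scale for each gene) of the 10 members in the 3 libraries of each group; symbols mark replicate numbers and the bar is the group mean. Itgb2 lies between 115 and 171 CPM in 3d-SN011 and between 6.62 and 9.18 CPM in vehicle, while Sele stays under 0.485 CPM in all 12 libraries.

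The selectins were the least expressed members. Selp, on chromosome 1 (164115264 to 164150026, plus strand), had 20, 5 and 9 counts in 3d-SN011, 6, 2 and 0 in SN011, 0, 0 and 0 in vehicle and 0, 0 and 2 in sham. Every 3d-SN011 library had Selp reads, and no vehicle library had any. Against a floor of 3 counts over the 3 vehicle libraries, pooled Selp CPM was 9.11-fold higher in 3d-SN011 and 2.38-fold higher in SN011. The SN011 value rests on 8 counts, and SN011 replicate 3 had none, like the vehicle libraries. Neither fold carries a counting interval. The ratio of pooled Selp CPM was 14.4 for 3d-SN011 over sham (34 against 2 counts, exact 95% counting interval 3.70 to 124) and 3.84 for 3d-SN011 over SN011 (34 against 8 counts, 1.74 to 9.59). These intervals cover counting error only. In the edgeR fit without a filter on low counts Selp was called higher in 3d-SN011 than in vehicle (adjusted p = 0.00211). It was also called higher in 3d-SN011 than in sham (edgeR adjusted p = 0.0176), and not against SN011 (edgeR adjusted p = 0.201). In that fit Selp was not called in SN011 against vehicle (edgeR adjusted p = 0.413). Reads of 2 antisense genes, Gm16587 and Gm16548, overlap Selp; they held 1 and 7 counts over all 12 libraries.

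Sele, beside Selp on chromosome 1 (164048234 to 164057677), had 0, 1 and 4 counts in 3d-SN011, 8, 1 and 0 in SN011, 0, 1 and 0 in vehicle and 2, 8 and 0 in sham. Its highest counts were in 1 SN011 library and 1 sham library, and 5 of the 12 libraries had none. The ratio of 3d-SN011 over sham was 0.424 (5 against 10 counts, exact 95% counting interval 0.114 to 1.36) and that of 3d-SN011 over vehicle 4.02 (5 against 1, 0.450 to 190). At this depth no difference in Sele was detectable between 3d-SN011 and either group. Megakaryocyte and platelet genes, whose cells also carry P-selectin, summed to 9.05 to 19.01 CPM in 3d-SN011, 3.04 to 5.66 in SN011, 3.19 to 4.505 in vehicle and 2.48 to 3.94 in sham. Of these 5 genes only Itga2b and Pf4 could be tested, and edgeR called both higher in 3d-SN011 than in vehicle. Itga2b averaged 8.97 CPM in 3d-SN011 and 2.74 in vehicle, and Pf4 averaged 4.36 and 0.296 in these groups. Ppbp, at 0.0494 CPM in 3d-SN011 and 0.363 in vehicle, and Gp9, at 0.339 and 0.426, were not higher, and Gp1bb was at 0 in 3d-SN011, vehicle and sham. Their part in the Selp counts was not tested.

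Selplg encodes PSGL-1, the ligand that the selectins bind. It stood at 178, 153 and 79.0 CPM in 3d-SN011, 55.1, 41.2 and 80.9 in SN011, 33.6, 32.6 and 38.7 in vehicle and 33.9, 32.6 and 35.4 in sham. All 3d-SN011 libraries lay above all vehicle libraries, but 3d-SN011 replicate 3 lay below SN011 replicate 3. Selplg rose in 3d-SN011 by 1.96 on the log2 scale against vehicle (SE 0.28, edgeR adjusted p = 8.07e-05), by 2.01 against sham (SE 0.28, adjusted p = 6.73e-05) and by 1.21 against SN011 (SE 0.27, adjusted p = 0.00316).

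The endothelial ligands differed widely from each other. Icam1, the inducible LFA-1 ligand (chromosome 9, 21015985 to 21028817), stood at 34.2, 30.9 and 24.1 CPM in 3d-SN011, 6.36, 2.40 and 13.7 in SN011, 2.00, 1.89 and 3.41 in vehicle and 3.21, 3.58 and 1.81 in sham. The 3d-SN011 libraries were close together and above every other library, and the SN011 libraries spread 5.71-fold. Icam1 rose in 3d-SN011 by 3.61 on the log2 scale against vehicle (SE 0.51, edgeR adjusted p = 8.07e-05; 12.2-fold), by 3.37 against sham (adjusted p = 0.00011) and by 1.99 against SN011 (adjusted p = 0.00397). Without SN011 replicate 3 the last value was 2.76.

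Icam2, the LFA-1 ligand that resting endothelium carries all the time (chromosome 11, 106377656 to 106388075), had the smallest fold change of the 8 tested members against vehicle and against sham. Its level was 4.96, 3.41 and 4.52 CPM in 3d-SN011, 2.31, 1.81 and 2.08 in SN011, 1.56, 2.60 and 2.25 in vehicle and 2.18, 2.67 and 2.12 in sham. The 3d-SN011 libraries lay above all others, and the other groups overlapped. It rose in 3d-SN011 by 1.01 against vehicle (log2, SE 0.26, edgeR adjusted p = 0.00581), by 0.89 against sham (adjusted p = 0.0114) and by 1.05 against SN011 (adjusted p = 0.00606).

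Vcam1 encodes the ligand of VLA-4 (chromosome 3, 116109949 to 116129688). It stood at 106, 153 and 58.3 CPM in 3d-SN011, 47.7, 37.0 and 75.1 in SN011, 26.2, 34.8 and 31.7 in vehicle and 40.2, 32.4 and 31.9 in sham. The 3d-SN011 libraries spread 2.62-fold and the lowest lay below SN011 replicate 3, while all lay above vehicle and sham. Vcam1 rose in 3d-SN011 by 1.78 against vehicle (log2, SE 0.32, edgeR adjusted p = 0.000411) and by 1.60 against sham (adjusted p = 0.000788). Its rise against SN011 was 0.99 (SE 0.31, edgeR adjusted p = 0.0187) and lost its call without 3d-SN011 replicate 2 (0.62, adjusted p = 0.0972), without SN011 replicate 1 (adjusted p = 0.0710), without SN011 replicate 2 (adjusted p = 0.0848) and in a fit of only these 6 libraries (adjusted p = 0.0870). Without SN011 replicate 3 it was 1.32 (edgeR adjusted p = 0.00429).

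Ratios of levels per kilobase of exon compare the ligands within a library. Icam1 over Icam2 was 3.10 ± 0.817 in 3d-SN011, 1.55 ± 1.19 in SN011, 0.512 ± 0.177 in vehicle and 0.534 ± 0.141 in sham (SD, n = 3 each). Icam1 was thus above Icam2 in all 3d-SN011 libraries (2.33 to 3.96) and below it in all vehicle and sham libraries (0.317 to 0.661). Vcam1 over Icam1 was 1.72 ± 0.644 in 3d-SN011, 4.66 ± 2.59 in SN011, 6.70 ± 2.26 in vehicle and 6.41 ± 2.10 in sham. Vcam1 stayed the higher of this pair in every library.

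Against vehicle, the chains of LFA-1 showed the largest log2 fold changes of the 8 tested members, though Itgal (3.64) and Icam1 (3.61) were within 1 SE. Against sham Icam1 (3.37) stood above Itgal (2.82). Itgb2, the beta-2 chain common to LFA-1, Mac-1 and their relatives (chromosome 10, 77530252 to 77565708), stood at 171, 115 and 139 CPM in 3d-SN011, 20.2, 15.9 and 56.3 in SN011, 6.62, 9.18 and 8.88 in vehicle and 8.98, 6.55 and 7.38 in sham. Every 3d-SN011 library lay above every SN011 library, and every SN011 library above every vehicle and sham library. Itgb2 rose in 3d-SN011 by 4.11 against vehicle (log2, SE 0.41, edgeR adjusted p = 1.54e-05; 17.2-fold), by 4.21 against sham (adjusted p = 1.20e-05; 18.5-fold) and by 2.20 against SN011 (SE 0.37, adjusted p = 0.000619; 2.97 without SN011 replicate 3).

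Itgal, the alpha chain that makes LFA-1 and is expressed by most leukocytes, was far lower (chromosome 7, 127296260 to 127335138). It had 18.7, 7.27 and 13.5 CPM in 3d-SN011, 2.31, 1.29 and 4.71 in SN011, 0.625, 1.17 and 1.35 in vehicle and 2.24, 2.24 and 1.09 in sham. The 3d-SN011 libraries lay above all others and spread 2.57-fold. Itgal rose in 3d-SN011 by 3.64 against vehicle (log2, SE 0.52, edgeR adjusted p = 8.74e-05; 12.5-fold), by 2.82 against sham (SE 0.49, adjusted p = 0.000336; 7.04-fold) and by 2.24 against SN011 (SE 0.47, adjusted p = 0.00213; 2.86 without SN011 replicate 3).

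The chains of VLA-4 changed less than those of LFA-1, and their 3d-SN011 libraries had the smallest relative spread of the 8 tested members. Itgb1, the beta-1 chain shared by many matrix receptors (chromosome 8, 128685654 to 128733200), stood at 204, 191 and 202 CPM in 3d-SN011, 79.4, 78.6 and 118 in SN011, 72.7, 76.6 and 71.3 in vehicle and 83.0, 74.2 and 80.0 in sham. The 3d-SN011 libraries varied by 3.64% (SD over mean) and lay above all others. Itgb1 rose in 3d-SN011 by 1.44 against vehicle (log2, SE 0.14, edgeR adjusted p = 1.54e-05; 2.70-fold), by 1.33 against sham (adjusted p = 1.60e-05) and by 1.11 against SN011 (adjusted p = 0.000165).

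Itga4, the alpha-4 chain of VLA-4 (chromosome 2, 79255426 to 79333123), had 14.3, 10.8 and 13.6 CPM in 3d-SN011, 6.88, 6.38 and 6.14 in SN011, 4.06, 4.88 and 5.08 in vehicle and 7.82, 7.64 and 4.84 in sham. The 3d-SN011 libraries lay above all others, and SN011 lay above vehicle but within the range of sham. Itga4 rose in 3d-SN011 by 1.46 against vehicle (log2, SE 0.21, edgeR adjusted p = 0.000102), by 0.93 against sham (adjusted p = 0.00212) and by 1.00 against SN011 (adjusted p = 0.00213). Icam1, Vcam1 and Itga4 each overlap an antisense gene, with 283, 25 and 122 counts over all 12 libraries for Gm47079, Gm43109 and Cerkl. Whether reads were counted by strand is not stated, and reads of such pairs cannot be told apart.

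**Figure D2:**
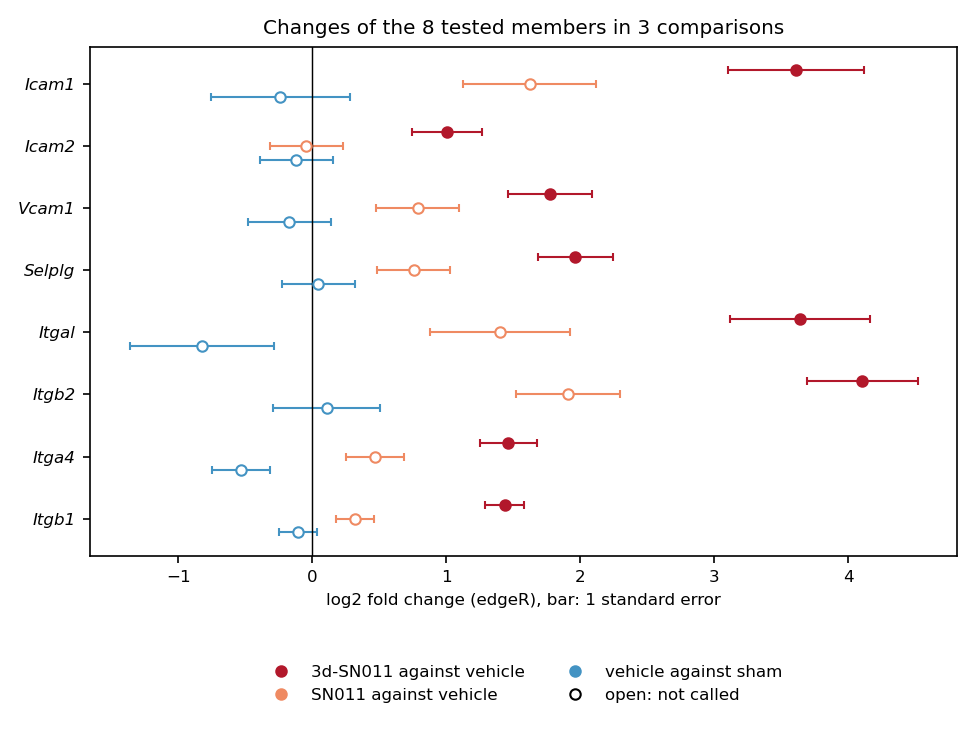
Log2 fold change (x axis, edgeR) of the 8 tested members in 3d-SN011 against vehicle, SN011 against vehicle and vehicle against sham; bars are 1 standard error, filled points are called and open points are not. The 8 filled points of 3d-SN011 against vehicle run from 1.01 for Icam2 to 4.11 for Itgb2, and no point of the other comparisons is filled.

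The comparison of SN011 with vehicle asks what the STING antagonist did after the occlusion. By edgeR's quasi-likelihood test 0 of the 8 members were called, where 0.0162% of all tested genes were. An unadjusted p under 0.05 was reached by 7 of the 8, against 2050 of all 18537 genes. DESeq2 called 2 members, with 443 of all genes, and limma voom with quality weights 3, with 1179 of all genes. The log2 difference was 1.91 for Itgb2 (SE 0.39, edgeR adjusted p = 0.149), 1.62 for Icam1 (SE 0.50, adjusted p = 0.228) and 1.40 for Itgal (SE 0.52, adjusted p = 0.333). It was 0.79 for Vcam1, 0.76 for Selplg, 0.47 for Itga4, 0.32 for Itgb1 and -0.046 for Icam2, with adjusted p from 0.312 to 0.973 in the same edgeR test. The members' median was 0.77 and that of all tested genes -0.0077.

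For 5 of the 8 members (Vcam1, Selplg, Itgb2, Itga4 and Itgb1) every SN011 library lay above every vehicle library, as was the case for 9.01% of all tested genes. SN011 replicate 3 was the highest of its group for 6 members and replicate 2 the lowest for 7. Without SN011 replicate 3 the log2 differences from vehicle were 1.13 for Itgb2, 0.85 for Icam1, 0.78 for Itgal, 0.45 for Vcam1, 0.46 for Selplg, 0.50 for Itga4 and 0.10 for Itgb1, and none was called by edgeR. Without SN011 replicate 2, Icam1 and Itgb2 were called in that test, as were 513 of all genes.

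Against sham, 0 of the 8 members were called in SN011 by edgeR (background 0.113%), and 3 had an unadjusted p under 0.05, against 2368 of all 18537 genes. DESeq2 called 1 member and limma voom 2, where they called 638 and 1875 of all genes. Itgb2 differed by 2.01 on the log2 scale (SE 0.39, edgeR adjusted p = 0.0574) and was called without SN011 replicate 3 (1.24, adjusted p = 0.0376). Selplg and Itgb2 did not overlap between these groups, where 12.8% of all tested genes lay higher without overlap. Vehicle set against sham compares libraries labelled as occlusion and as sham operation, both without SN-011. There edgeR called 0 of the 8 members (background 0%), only Itga4 had an unadjusted p under 0.05 (log2 difference -0.53, edgeR adjusted p = 1), and neither DESeq2 nor limma voom called any. Vehicle and sham libraries overlapped for every tested member, while 6.86% of all tested genes lay higher in vehicle without overlap. Striatal neuron markers summed to 4568 to 4782 CPM in vehicle and 4327 to 4944 in sham, and homeostatic microglia markers to 434 to 477 and 462 to 495. The labels do not give the side of the brain. Whether the vehicle libraries hold injured tissue was not tested, so the lack of calls does not show that occlusion left the members unchanged.

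Levels per kilobase of exon put the members in order. In 3d-SN011, in CPM per kilobase (mean ± SD, n = 3), Itgb1 was at 48.7 ± 1.77, Itgb2 at 46.4 ± 9.15 and Selplg at 31.95 ± 12.01. Neighbours in this trio overlapped between libraries. By this length Vcam1 at 11.9 ± 5.33 lay below all of them and overlapped Icam1 at 6.82 ± 1.18. Icam2 at 2.26 ± 0.421 and Itgal at 2.00 ± 0.870 overlapped, Itga4 at 0.922 ± 0.133 was below both, and Selp (0.133 ± 0.0901) and Sele (0.0303 ± 0.0388) came last.

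The order was different in the other groups. In SN011 the levels in CPM per kilobase were 22.5 ± 5.46 for Itgb1, 13.8 ± 4.71 for Selplg, 10.1 ± 7.27 for Itgb2, 6.01 ± 2.22 for Vcam1 and 1.72 ± 1.32 for Icam1. In vehicle they were 18.01 ± 0.673 for Itgb1, 8.19 ± 0.771 for Selplg, 3.49 ± 0.490 for Vcam1, 2.70 ± 0.458 for Itgb2, 1.12 ± 0.278 for Icam2 and 0.558 ± 0.195 for Icam1. In sham they were 19.4 ± 1.09 for Itgb1, 7.95 ± 0.325 for Selplg, 3.93 ± 0.526 for Vcam1 and 2.50 ± 0.405 for Itgb2. The ratio of Itgb2 to Itgb1 was 0.949 ± 0.157 in 3d-SN011, 0.417 ± 0.196 in SN011, 0.150 ± 0.0242 in vehicle and 0.129 ± 0.0142 in sham, and the ranges of 3d-SN011, SN011 and vehicle did not overlap. With the length of the longest transcript in place of all exons, Selplg (59.0 CPM per kilobase) stood above Itgb1 (52.1) in 3d-SN011. Vcam1 (25.9) then overlapped Selplg between 3d-SN011 libraries and no longer overlapped Icam1 (11.7).

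Integrin chains work in pairs, and the alpha chains that Itgb2 can pair with were led by Itgam, the chain of Mac-1 in microglia and myeloid cells. Itgam took 75.4 ± 12.3% of the summed level per kilobase of Itgal, Itgam, Itgax and Itgad in 3d-SN011, 78.9 ± 3.78% in SN011, 80.0 ± 6.69% in vehicle and 75.6 ± 5.31% in sham. Itgal took 10.1 ± 6.16% in 3d-SN011, 6.98 ± 1.09% in SN011, 7.37 ± 2.44% in vehicle and 13.8 ± 4.32% in sham, with 3.80% to 16.1% over the 3d-SN011 libraries. These ranges overlapped between 3d-SN011 and each other group. Itgax, the chain of a complement receptor of dendritic and activated myeloid cells, took 11.4 ± 3.55% in 3d-SN011 and 8.24 ± 2.80% in vehicle.

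The alpha chains that can pair with Itgb1 shifted more. Itga6, a laminin receptor chain, took 27.9 ± 4.95% of the summed level per kilobase of 12 such chains in 3d-SN011, 14.9 ± 6.31% in SN011, 9.01 ± 0.643% in vehicle and 10.3 ± 1.07% in sham. Itga9 took 2.53 ± 0.502% in 3d-SN011, 9.87 ± 3.01% in SN011, 13.3 ± 0.822% in vehicle and 12.6 ± 1.44% in sham. For both, the 3d-SN011 libraries did not overlap any other group. For Itga6 the margin was narrow, with 22.23% as the lowest in 3d-SN011 and 22.13% as the highest in SN011. Itga4 was a small part throughout: 1.66 ± 0.192% in 3d-SN011, 1.16 ± 0.0966% in SN011, 0.862 ± 0.106% in vehicle and 1.21 ± 0.302% in sham. Some of these alpha chains, Itgav and Itga4 among them, also pair with other beta chains. The shares are therefore of alpha-chain RNA and not of beta-1 integrin. Itgav took 25.3 ± 6.05% in 3d-SN011 and 28.6 ± 2.76% in vehicle.

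**Figure D3:**
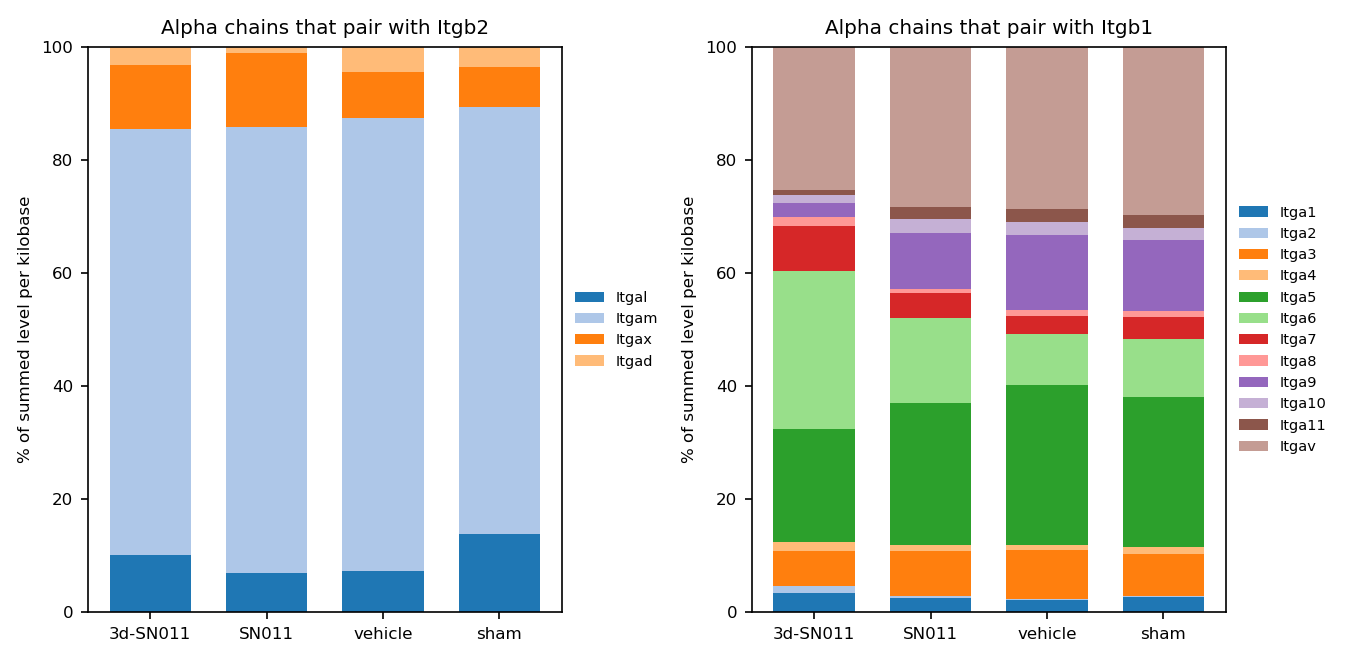
Mean share (y axis, % of the summed level per kilobase, n = 3) of the alpha chains that can pair with Itgb2 (left) and with Itgb1 (right), by group. Itgam is the largest share beside Itgb2 in every group, and beside Itgb1 the share of Itga6 is 27.9% in 3d-SN011 and 9.01% in vehicle.

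In whole tissue, fewer cells of a type and less RNA per cell cannot be told apart, so each tested member was set beside a list of endothelial or microglial markers. Endothelial markers (12 genes, Cldn5, Flt1 and others) summed to 520 to 903 CPM in 3d-SN011, 434 to 491 in SN011, 417 to 451 in vehicle and 515 to 550 in sham. Of these 12, 8 were called higher in 3d-SN011 than in vehicle, with a median log2 fold change of 0.56. Of all tested genes 28.9% were called higher in that comparison and 28.2% lower, the background for every list below. Against sham 2 were called higher, Slc2a1 (1.41) and Ly6c1 (0.99), and 2 lower, Flt1 (-0.34) and Kdr (-0.64). The median against sham was 0.27, where 29.8% of all tested genes were called higher. Slc2a1 was the largest part of the 3d-SN011 sum, at 246 ± 133 CPM, and averaged 98.4 CPM in vehicle and 92.7 in sham. Relative to the mean log2 CPM of that list, Icam1 was higher in 3d-SN011 than in vehicle by 3.03, Vcam1 by 1.12, Itgb1 by 0.88 and Icam2 by 0.43 on the log2 scale. The libraries of these groups did not overlap for any of the 4 genes (exact permutation test, two-sided, p = 0.1, the smallest that 3 against 3 allows, 0.114 adjusted over 8 such tests). In 3d-SN011 against vehicle Icam1 rose by 3.61, endothelial markers by a median of 0.56 and homeostatic microglia markers (given below) by a median of 2.77. Which cells carried these members was not tested, so the differences are not levels per endothelial cell.

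Homeostatic microglia markers (10 genes, P2ry12, Tmem119 and others) summed to 2022 to 3801 CPM in 3d-SN011, 536 to 1622 in SN011, 434 to 477 in vehicle and 462 to 495 in sham, and all 10 were called higher in 3d-SN011 than in vehicle (median log2 fold change 2.77). SN011 replicate 3 was the highest of its group in this sum too. Relative to that list, Itgb2 was higher in 3d-SN011 than in vehicle by 1.60 on the log2 scale, while Selplg was lower by 0.60 (-0.60) and Itga4 by 1.04 (-1.04), with no overlap (exact permutation test, p = 0.1 each). Itgal differed by 0.99 and its libraries overlapped (exact permutation test, p = 0.3). Itga4 and Itgal are best known from blood leukocytes, so their differences from this list are not levels per expressing cell. Astrocyte markers (5 genes), beside Vcam1 and Itgb1, summed to 2261 to 3636 CPM in 3d-SN011, 1295 to 2121 in SN011, 1169 to 1183 in vehicle and 1194 to 1195 in sham. Of these 5, 4 were called higher in 3d-SN011 than in vehicle, with a median log2 fold change of 1.41. In that comparison Vcam1 rose by 1.78 and Itgb1 by 1.44, and neither was scaled to the astrocyte list.

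Markers of blood leukocytes had lower summed levels than these lists in every group. Neutrophil markers (8 genes) summed to 3.61 to 7.06 CPM in 3d-SN011, 0.603 to 1.11 in SN011, 0.772 to 1.82 in vehicle and 0.606 to 1.15 in sham, with Ly6g and Retnlg at 0 in SN011 and Ly6g at 0 in sham. Only S100a9 of these could be tested, and it was not called, at 0.475 CPM in 3d-SN011 and 0.512 in vehicle. The higher 3d-SN011 sum lay mainly in Mmp8, at 2.64 CPM in 3d-SN011 and 0.0423 in vehicle, and S100a8, at 1.12 and 0.169. T and B lymphocyte markers (10 genes) summed to 3.66 to 25.1 CPM in 3d-SN011, 3.28 to 7.84 in SN011, 2.90 to 3.56 in vehicle and 2.84 to 4.06 in sham, where Cd3e was at 0. Of the 5 that could be tested edgeR called 4 (Cd3g, Lck, Trac and Cd8a) higher in 3d-SN011 than in vehicle, with a median of 3.26. Monocyte and border macrophage markers (8 genes) summed to 24.3 to 62.2 CPM in 3d-SN011, 17.97 to 23.0 in SN011, 16.3 to 25.8 in vehicle and 18.02 to 21.96 in sham. Of 7 tested, 5 were called higher in 3d-SN011 than in vehicle (median 2.64), led by Ms4a7 with 18.6 CPM in 3d-SN011 and 0.364 in vehicle. Cd163, a scavenger receptor of border macrophages, was called lower, at 2.83 CPM in 3d-SN011 and 16.1 in vehicle (log2 fold change -2.51). Ptprc, the CD45 that all leukocytes and microglia carry, stood at 49.8 to 93.0 CPM in 3d-SN011, 9.18 to 37.6 in SN011, 5.53 to 9.31 in vehicle and 5.46 to 8.01 in sham. 3d-SN011 replicate 1 had the most Ptprc, lymphocyte markers and homeostatic microglia markers of its group, and was the highest for 7 of the 8 tested members. Replicate 3 had a lower sum of lymphocyte markers than replicate 2 (3.66 against 13.6 CPM). It had more Itgal (13.5 against 7.27 CPM) and more Itgb2 (139 against 115 CPM). The part of these cells in the members' changes was not tested.

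**Figure D4:**
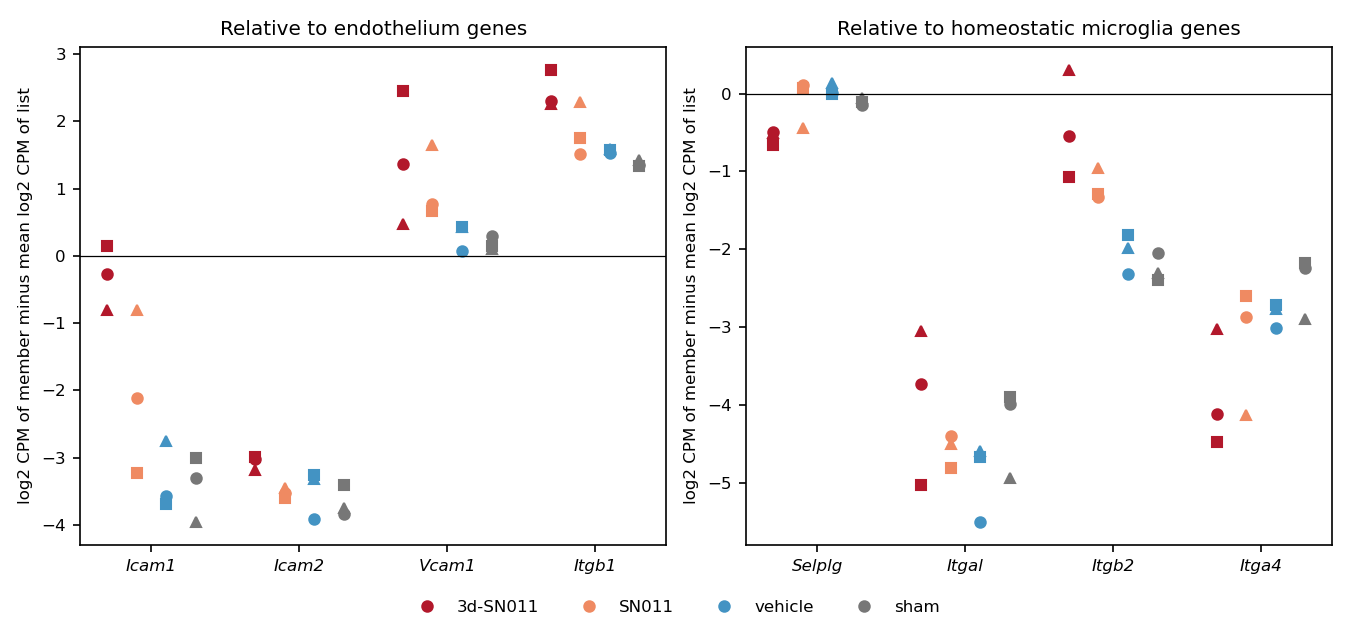
Log2 CPM of each tested member minus the mean log2 CPM of endothelium (left) or homeostatic microglia (right) markers in each library, coloured by group; 0 is the mean of the marker list. Icam1 lies higher in 3d-SN011 than in vehicle by 3.03 on this scale, and Itga4 lies lower by 1.04.

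Lists of related genes were counted in the same fit. Of 17 other adhesion and junction genes of endothelium 14 were tested, and 9 were called higher and 3 lower in 3d-SN011 than in vehicle (median log2 fold change 0.91). Cd34, a mucin-like ligand of L-selectin and a progenitor and vessel marker, stood at 52.8 ± 12.7 CPM in 3d-SN011 and 16.9 ± 0.856 in vehicle, and F11r, the junction molecule JAM-A that LFA-1 can bind, at 48.0 ± 14.9 CPM in 3d-SN011 and 10.5 ± 1.17 in vehicle. Alcam stood at 93.3 ± 34.3 CPM in 3d-SN011 and 416 ± 77.7 in vehicle, and Icam5, the LFA-1 ligand of forebrain neurons, at 53.7 ± 41.7 CPM in 3d-SN011 and 172 ± 34.4 in vehicle. The third gene called lower, named after its values were seen, was Cd99l2 (log2 fold change -0.40). The striatal neuron markers given above were lower in 3d-SN011 too, and their part in these falls was not tested.

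Of 14 genes for L-selectin and the making of selectin ligands, 11 were tested, with 9 called higher and 2 lower (median 1.36). B4galt1, a galactosyltransferase, rose in 3d-SN011 by 2.91 (log2, SE 0.32) and Chst2, a sulfotransferase of L-selectin ligands, by 1.44 (SE 0.18). Chst1 fell by 0.98 (SE 0.18) and Tpst1, a tyrosine sulfotransferase of the kind that modifies PSGL-1, by 0.59 (SE 0.13). The edgeR adjusted p lay between 2.02e-05 and 0.00169 for these 4 genes.

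The other leukocyte integrin chains had 4 of 5 genes tested and all 4 called higher in 3d-SN011 than in vehicle (median 3.13). Itgam rose by 3.39 (log2, SE 0.49) and Itgb7, the beta chain that pairs with Itga4 in the gut-homing integrin, by 2.65 (SE 0.40). The other two were Itgax (3.86) and Itgae (2.86), the chain that tissue-resident T cells carry. Against sham 3 were called, Itgam (3.56), Itgax (4.13) and Itgb7 (2.88), and against SN011 2, Itgam (1.86) and Itgb7 (1.63). Of 17 other integrin chains 16 were tested, with 10 higher and 2 lower against vehicle (median 1.03). Itgb5, a vitronectin receptor chain, rose by 2.96 (SE 0.34) and Itga6 by 2.15 (SE 0.26), while Itga9 fell by 1.87 (SE 0.20) and Itga11, a collagen receptor chain, by 1.02 (SE 0.24).

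Of 17 genes of integrin activation 16 were tested, with 12 higher and 2 lower against vehicle (median 1.56). Fermt3, the kindlin of blood cells, stood at 81.1 ± 24.4 CPM in 3d-SN011 and 5.72 ± 1.93 in vehicle, and Tln1, the talin that opens integrins in leukocytes and platelets, at 299 ± 53.9 CPM in 3d-SN011 and 77.7 ± 3.67 in vehicle. Tln2, the talin of brain and muscle, fell by 1.41 (log2, SE 0.14) and Rasgrp2, a Rap1 exchange factor of platelets that striatal neurons also express, by 2.80 (SE 0.36). In SN011 against vehicle, SN011 against sham and vehicle against sham, edgeR called 0 genes of these 5 lists. In SN011 against vehicle 2050 of all 18537 genes reached an unadjusted edgeR p under 0.05. So did 7 of the 16 integrin activation genes and all 4 of the other leukocyte chains. In the remaining lists it was 1 of 14 endothelial adhesion and junction genes, 4 of 11 selectin ligand genes and 4 of 16 other integrin chains.

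**Figure D5:**
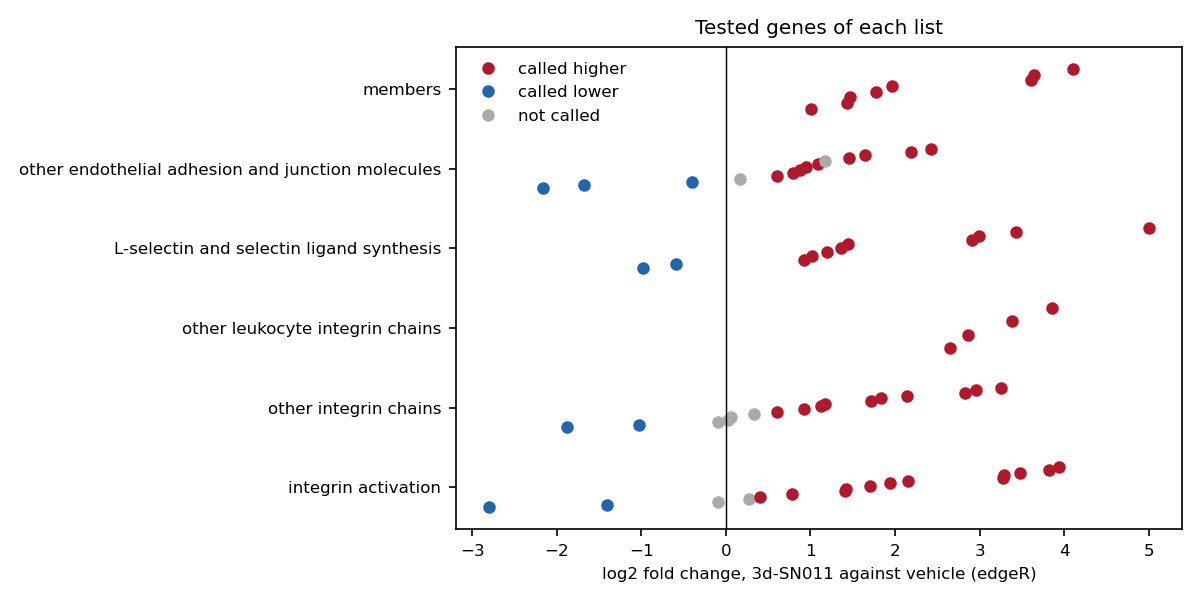
Log2 fold change in 3d-SN011 against vehicle (x axis, edgeR) of each tested gene in the member list and in the 5 related lists (rows); red is called higher, blue called lower and grey not called. All 8 members and all 4 other leukocyte chains are red, and the other lists hold 2 or 3 blue points each.

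The genes whose pattern over the 12 libraries was closest to each member were found by the root mean square distance of centred log2 CPM among 13933 genes. For Itgb2 they were Fcgr3 (distance 0.14) and Runx1 (0.18), for Selplg Sall1 (0.15) and Spidr (0.15), and for Itgal Wdfy4 (0.30) and Dok1 (0.35). For Icam1 they were Abi3 (0.24) and Unc93b1 (0.26), for Icam2 Dclre1a (0.16) and Flvcr1 (0.18), and for Vcam1 Ednrb (0.15) and Cav2 (0.18). For Itga4 they were Cspg4 (0.20) and Lasp1 (0.20), and for Itgb1 Scarb2 (0.072) and Serinc3 (0.081). The 12 libraries share the large difference between 3d-SN011 and the rest, which any gene with a similar change follows.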

How the data were processed

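PolyA+ RNA of mouse striatum was sequenced as paired reads. Per the submitters' processing notes, the authors used HISAT2, featureCounts and mm10; the sources used here state no versions, strand setting or annotation. The authors deposited raw counts, whole reads for each Ensembl gene, in a table per library. Symbols, exon lengths and positions came from GENCODE M21 (GRCm38, counted from 1); 54409 of 54532 genes had a symbol. No library repeated another of its group: chi-square per degree of freedom was 4.79 to 78.2 (genes of 20 or more counts).

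Counts were fitted in R 4.3.3 with edgeR 4.0.16: filterByExpr (minimum count 10), TMM, 1 quasi-likelihood fit of all 12 libraries by group, so that groups share 1 estimate of the spread, and p-values adjusted over all tested genes. Levels relative to markers used log2 CPM with a prior count of 2. The fit was tested on simulated data with 200 changed genes. Alternatives used RLE and upper-quartile scaling, no filter, DESeq2 1.42.0, limma voom (3.58.1), a fold threshold, fewer libraries and a replicate block. Replicate numbers did not pair the libraries (correlations of deviations from -0.293 to 0.143).

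The members and lists were chosen with earlier results of these data known. Named beside the members were, in each related list, the 2 called genes with the smallest adjusted p in each direction in 3d-SN011 against vehicle, any called gene in the other comparisons where 5 or fewer were called, alpha chains of Itgb2 and Itgb1, and for each tested member the 2 genes nearest in pattern. Figures were drawn with matplotlib 3.10.9.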

Additional observations from a re-analysis of the deposited data

How the results depend on the processing

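In 3d-SN011 against vehicle all 8 tested members kept their calls under every alternative run except the test against a log2 fold change of 1, which called 7, not Icam2; without a filter Selp made 9. The number of members called was 5 of 8 against sham and 2 of 8 against SN011 in that test, and 7 to 8 against SN011 with any 1 library left out. In SN011 against vehicle, where edgeR called 0, it was 3 without a filter, 2 by DESeq2, 3 by limma voom with quality weights and 0 to 2 with 1 library left out; in SN011 against sham it was 3, 1, 2 and 0 to 2 under the same settings. The replicate block gave 0 members called in SN011 against vehicle, SN011 against sham and vehicle against sham and 8 in each comparison of 3d-SN011; the numbers do not pair the libraries. Over all genes, calls ran from 0 to 32 in vehicle against sham (0 as reported), from 0 to 1179 in SN011 against vehicle (3) and from 0 to 1875 in SN011 against sham (21), with the most by limma voom. The test against a log2 fold change of 1 called 3436 genes in 3d-SN011 against vehicle, 3529 against sham and 1216 against SN011, where the test against 0 called 10584, 10684 and 8607.

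Directions turned only for differences that were not called. By limma voom Icam2 was 0.23 in SN011 against vehicle and Itga4 0.029 in SN011 against sham. With 1 library left out, the log2 difference ran from -0.23 to 0.12 for Icam2 in SN011 against vehicle, from -0.28 to 0.064 for Icam2 and from -0.037 to 0.091 for Selplg in vehicle against sham, and in SN011 against sham from -0.045 to 0.92 for Itgal, from -0.26 to 0.050 for Itga4 and from -0.0017 to 0.31 for Itgb1. The cause was not tested. With the longest transcript as length, levels in 3d-SN011 were 11.7 CPM per kilobase for Icam1, 3.35 for Icam2, 25.9 for Vcam1, 59.0 for Selplg, 1.32 for Itga4 and 52.1 for Itgb1. Depth limits Sele and Selp, at 5 and 34 counts over the 3 libraries of 3d-SN011.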
